A study of Mus musculus with 4 samples.

Results

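Whole *Dyrk2*-/- mouse embryos at E10.5 were compared with *Dyrk2*-/- embryos at E8.5 (E, embryonic day), and the change was set against that of wild-type (WT) embryos between the same stages. The series holds 4 single-colour microarrays, and the 2 knockout arrays were chosen by the genotype and stage in their labels. The 2 WT arrays served as the reference for normal development. All RNA came from whole embryos on a C57BL/6 background. The knockout line carries 1 of 3 small deletions made in *Dyrk2* with the CRISPR/Cas9 nickase, and loss of the protein was shown at E18.5. The number of embryos in each RNA and the deletion they carried are not given in the sources used here. Each group was measured on 1 array, so no replicate check and no p value exist for the knockout alone, and the precision of every value below is limited by the number of arrays. In whole-embryo RNA, fewer cells of a type and less RNA per cell cannot be told apart.

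Between E8.5 and E10.5 the mouse embryo turns, forms most of its somites, starts its circulation and grows limb buds, while the neural tube produces its early neurons. Primitive red cells from the yolk sac enter the embryo over this period, and the axis-extending programme of the tail bud declines. *Dyrk2* encodes a dual-specificity kinase whose known substrates and partners include regulators of the cell cycle, of protein degradation and of hedgehog signalling.

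Values are log2 intensities after subtraction of each array's 75th percentile, and a change is the E10.5 value minus the E8.5 value. A gene is represented by its brightest probe. A probe was called changed when its values differed by at least 1.5-fold (0.585 log2) and it was well above background, by the call of the image analysis program, on at least 1 of the arrays compared. Where it was above background on only 1 of them, the fold is given as a lower bound ("at least"). List medians are over the values of all genes tested, and the median with bounds in their place follows where it differs by 0.1 or more. The difference is the knockout change minus the WT change, counted over genes above background on all 4 arrays. It equals the gap between the genotypes at E10.5 minus the gap at E8.5, no difference was tested, and it cannot tell which of the 4 arrays is unusual. Where 4 values are listed, their order is WT E8.5, knockout E8.5, WT E10.5 and knockout E10.5.

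The *Dyrk2* transcript did not check the genotype labels. Its brighter probe read 0.06, 0.76, −0.31 and 0.34, and the other read −0.23, −0.20, −0.28 and 0.00, so neither was lower on the knockout arrays. The brighter probe was higher in the knockout than in WT past the threshold, 1.62-fold at E8.5 and 1.57-fold at E10.5, and the other was not. Small deletions need not remove a transcript. Within the family, *Dyrk3* fell by 0.67 log2 in the knockout from E8.5 to E10.5. *Dyrk1a* and *Dyrk1b* changed by −0.13 and 0.48, under the threshold, and *Dyrk4* was above background on no array. The *Dyrk1a* probes ranged from −0.13 to 0.65, and the other *Dyrk1b* probe changed by −0.42. Among 19 measured family members, substrates and ligase partners, 1 rose and 4 fell, where 17.6% and 13.9% of all genes did, with a median of −0.13 (0.51 with spike-in scaling and 0.17 unscaled) beside −0.05 over all genes tested. The ligase *Siah2* fell by 0.69 and *Nfatc1*, a transcription factor that DYRK kinases phosphorylate, by 0.76 (0.02 on its other probe).

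The sex chromosome genes set the knockout E10.5 array apart from the other 3. *Xist*, the RNA of the inactive X chromosome, read −7.11, −6.85, −7.01 and −0.37 and was above background on the knockout E10.5 array alone, at least 17.9-fold higher than at E8.5. A human-named XIST probe beside it on the X chromosome gave at least 432-fold. The Y genes *Eif2s3y*, *Kdm5d*, *Ddx3y* and *Uty* were above background on every array but that of the knockout at E10.5, and fell by at least 60.1-, 40.4-, 9.24- and 5.45-fold. Another *Kdm5d* probe was above background on all 4 arrays, at −2.21, −2.61, −2.61 and −2.78. Stage and sex therefore cannot be separated for X- and Y-linked genes in the knockout. Of 849 X-linked genes tested, 15.5% rose and 17.7% fell, against 17.7% and 13.8% of 20231 autosomal genes, and the median difference from WT was 0.07 on the X and 0.02 on autosomes.

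The knockout embryos changed broadly between the stages. Of 32910 probes tested, 5611 (17.0%) were higher and 4729 (14.4%) lower at E10.5 than at E8.5. Counted as genes, 3730 of 21244 (17.6%) rose and 2959 (13.9%) fell, with a median change of −0.05. The counts of each list below stand beside these shares. In WT, 4074 of 21619 genes (18.8%) rose and 3789 (17.5%) fell. Many knockout rises started from background: 2113 of the 5611 higher probes were above background only at E10.5, and 1139 of these had a lower bound of at least 1.5-fold. Of the 4729 lower probes, 904 were above background only at E8.5.

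The direction of small changes depended on how the arrays were scaled. Scaling to spike-in RNA shifted the median knockout change by 0.64 log2, the WT change by −0.07 and the difference by 0.71, while leaving the arrays unscaled shifted them by 0.31, 0.18 and 0.12. With spike-in scaling 92.2% of 17598 called probes were higher, and unscaled 79.7% of 11481, against 54.3% of 10340 with the percentile scaling used here. All changes below are therefore relative to the bulk of the genes on each array. Spike-in scaling moved the counts of nearly every list towards rises and towards more positive differences. Background correction by a convolution model (normexp) narrowed the spread of the knockout changes from 0.67 to 0.49 log2 over probes. The knockout median turned or moved by over 1.5 times in 22 of 54 lists with normexp, 42 with spike-in scaling and 32 unscaled. Where the median of a gene list turns direction under another scaling, that median follows in the same sentence.

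Across 18668 genes above background on all 4 arrays, the knockout change followed the WT change, with a Pearson correlation of 0.86 and a Spearman correlation of 0.77. Genes are not independent replicates, so the correlation is a description. The knockout changes spread less, with a standard deviation of 0.71 against 0.82 in WT, a ratio of 0.869. Of 2348 genes that rose in the knockout, 1786 (76.1%) also rose in WT, and these were 65.1% of the 2743 WT rises. Of 2308 that fell, 1596 (69.2%) also fell in WT, which is 56.1% of the 2846 WT falls. Only 40 genes (0.214%) passed the threshold in opposite directions. In the plot of knockout change against WT change, most labelled blood genes lie well below the diagonal.

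**Figure D1:**
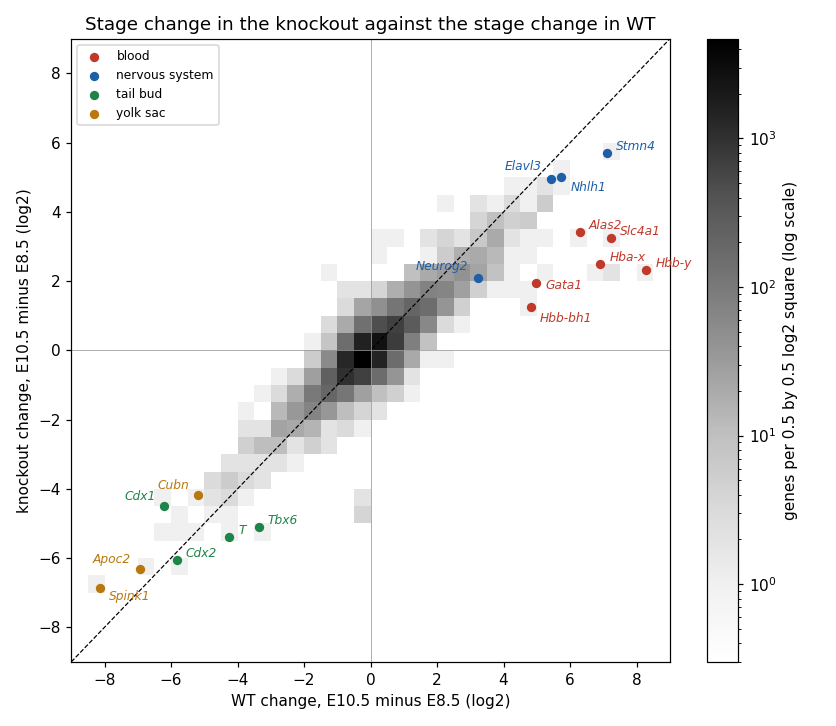
Change from E8.5 to E10.5 in the *Dyrk2* knockout against the change in WT (log2, 1 array per group), as counts of genes per square, with named genes coloured by tissue and a dashed line of equal change. Most labelled blood genes rose in both genotypes but lie far below the line, while *T* and *Tbx6* fell further in the knockout.

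Genes with large changes moved less in the knockout at the median. Among 1786 genes that rose in both genotypes the median rise was 1.09 in the knockout and 1.30 in WT, and 1250 (70.0%) rose less in the knockout. Among 1596 that fell in both, the medians were −0.95 and −1.05, and 1057 (66.2%) fell less. Binned by the mean of both changes, genes above 2 log2 had medians of 2.37 in the knockout and 2.88 in WT, with 82.5% of 342 genes smaller in the knockout. Genes below −2 had −2.41 and −2.72, with 79.5% of 171 smaller. Differences past the threshold were fewer than stage changes: 941 of 18668 genes (5.04%) were more positive in the knockout and 1189 (6.37%) more negative, or 1452 (5.07%) and 1959 (6.84%) of 28622 probes. This balance turned to 2539 and 1245 probes unscaled and to 18870 and 152 with spike-in scaling. Counts of more positive and more negative genes in each list below are to be read beside the shares of 5.04% and 6.37%. The spike-in shift of 0.71 is also larger than each gap between the median rises above.

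Most of these differences were carried by the E8.5 arrays. Of the 1189 genes with a more negative knockout change, 856 (72.0%) had their larger genotype gap at E8.5, where the median knockout value was 0.54 above WT, against −0.27 at E10.5. Of the 941 more positive genes, 652 (69.3%) had it at E8.5, with medians of −0.53 and 0.25. The more negative group held 698 smaller rises and 280 larger falls, and the more positive group 422 smaller falls and 307 larger rises. The knockout E8.5 array also had the largest spread between spots of the same probe, with a median coefficient of variation of 9.75% against 5.45 to 7.76% on the others. It was the only array that the image analysis program marked as out of range for this value. The spread of the spike-in spots was marked out of range on both E8.5 arrays (8.01% in WT and 8.58% in the knockout), which also limits the spike-in scaling.

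When both genotypes were combined, stage could be tested with 1 residual degree of freedom. A linear model with genotype as a block called 11397 of 32289 probes (35.3%) at an adjusted p under 0.05, 5062 higher and 6335 lower at E10.5. This balance turned to 8758 and 3010 unscaled, to 2095 and 538 with spike-in scaling and to 3558 and 2879 without an intensity trend. Its residual is the difference itself, so a probe whose change differed between the genotypes had less chance of a call. The test speaks to stage in the series and not to the knockout alone.

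The largest rises among genes above background on both knockout arrays included a globin and genes of neurons. The adult beta globin *Hbb-bt* read −5.07, −0.60, 5.10 and 5.79 and rose by 6.40 log2 (84.3-fold) in the knockout. Next came the microtubule regulator *Stmn4* (5.70, 51.9-fold), the neuropeptide *Sst* (5.65), the neuronal factors *Nhlh1* (32.1-fold) and *Insm1* (4.77), the noncoding *Pantr1* (4.78), the RNA-binding proteins *Elavl3* (4.96) and *Celf3* (4.85, with −0.31 on its other measured probe), and the glycine receptor subunit *Glra1* (4.92). Among genes above background only at E10.5, the largest lower bounds besides *Xist* belonged to the platelet chemokine *Pf4* (at least 125-fold), the noncoding *Dnm3os* (at least 92.2-fold), *Bcl11a* (at least 71.6-fold) and *C130071C03Rik* (at least 71.1-fold).

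The largest falls among genes above background on both knockout arrays included genes of yolk sac, tail bud and hindbrain. The trypsin inhibitor *Spink1* read 4.81, 3.79, −3.34 and −3.06 and fell by 6.85 log2 (115-fold) in the knockout, ahead of the apolipoprotein *Apoc2* (−6.32), the homeobox gene *Cdx2* (−6.05) and the imprinted *Phlda2* (−5.43). The mesoderm factors *T* (−5.38) and *Tbx6* (−5.09), the hindbrain gene *Egr2* (−5.09), the antisense RNA *Hoxaas3* (−5.18) and *Fgf3* (−4.85) completed the named part of that list. The other measured probe of *Hoxaas3* changed by 1.95. The single probe of *Aplp2* read 4.15, 4.21, 4.72 and −7.06, the largest bound among falls (at least 504-fold). It was above background on the 3 other arrays, and no other probe of the gene was measured. Whether a fault of the spot gave the low *Aplp2* value was not tested.

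Among the gene lists, the embryonic and adult-type globins made the clearest contrast in size. Their median differences from WT were −4.42 and −4.81, over 3 and 2 genes. All 5 adult-type globins and 3 of 4 embryonic globins rose in the knockout. The E8.5 array of the knockout had 4 of the 5 and all 4 above background, where that of WT had 2 and 3. The embryonic *Hbb-y* read 0.15, 6.15, 8.44 and 8.47, so that it rose by 2.32 log2 in the knockout and by 8.29 (313-fold) in WT. At E10.5 its values in the 2 genotypes were 0.03 apart. *Hba-x* (0.43, 5.50, 7.33 and 7.99) and *Hbb-bh1* (3.37, 7.15, 8.19 and 8.40) had the same order, with rises of 2.49 and 1.26 in the knockout against 6.91 and 4.82. The alpha globins *Hba-a1* (1.02, 5.96, 8.14 and 8.30) and *Hba-a2* (0.88, 5.85, 8.10 and 8.23) rose by 2.34 and 2.38 against 7.12 and 7.23. A dimmer *Hba-a1* probe (−0.74, 4.13, 7.14 and 7.98) rose by 3.86 in the knockout, and a dimmer *Hbb-bh1* probe (−4.97, −0.97, −0.01 and 1.23) by 2.20. At E10.5 the genotypes lay further apart on these dimmer probes than on the brighter ones, with the knockout higher. *Hba-x* and *Hbb-bt* were also higher in the knockout at E10.5, by 0.66 and 0.69, so near-equal values at that stage did not hold for every globin probe. *Hbb-bh2* was above background only on the knockout E8.5 array and fell by at least 4.57-fold. Globin transcripts are alike in sequence, and a probe of 1 may bind another.

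Genes of red cell formation behaved like the globins in part. The erythroid transcription factor *Gata1* read −4.01, 0.26, 0.98 and 2.21 and rose by 1.95 (3.87-fold) in the knockout against 4.99 in WT, a difference of −3.04. *Nfe2* (−4.12, −0.54, 0.16 and 1.25), a factor that binds globin enhancers, rose by 1.79 against 4.28. The heme enzyme *Alas2* (−3.83, 0.24, 2.45 and 3.66) rose by 3.42 against 6.28, and the anion exchanger *Slc4a1* (−4.56, 0.54, 2.67 and 3.78) by 3.25 against 7.23. These 4 genes were higher in the knockout than in WT at both stages, but *Gata1* and *Alas2* are X-linked, so that for them stage and sex cannot be separated. *Gfi1b* was above background on all arrays but WT E8.5 and rose by 2.58 in the knockout. *Klf1*, another erythroid factor, rose by 2.82.

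Other members of the same lists differed from WT in both directions. Of 16 red cell membrane genes 12 rose and 0 fell, with a median of 2.25 beside −0.05 over all genes. The blood group carriers *Rhd* and *Kel* rose by 4.31 (19.9-fold) and 4.23 (18.8-fold), where the WT rises were 5.35 and 2.39. *Rhag* rose by at least 9.01-fold. Of 15 genes of heme synthesis and iron 8 rose in the knockout and 4 in WT, with medians of 0.70 and 0.23. *Uros*, a heme pathway enzyme, rose by 0.90 in the knockout and changed by 0.15 in WT, and the mitochondrial carriers *Slc25a37* and *Abcb10* rose by 1.49 and 1.38, differences of −0.26 and 0.28 from WT. The median difference of the heme list was 0.32, with 2 genes more positive past the threshold and 1, *Alas2*, more negative.

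Platelet and macrophage genes rose in both genotypes. All 14 megakaryocyte genes rose (13 with bounds and 7 with normexp), 10 of them from background, among them *Treml1* (at least 28.9-fold) and the chemokine *Ppbp* (at least 12.5-fold). The integrins *Itgb3* and *Itga2b* rose by 1.64 and 0.90, beside 1.85 and 0.98 in WT. Of 19 macrophage and myeloid genes 15 rose (13 with bounds and 9 with normexp), 11 of them from background. The microglial receptor *Cx3cr1* rose by at least 18.9-fold, the lysozyme *Lyz2* by at least 14.9-fold, *F13a1* by at least 5.08-fold and the growth factor receptor *Csf1r* by 1.24 against 1.71 (−0.07 on its other probe). *Ptprc* changed by −0.24 on its brightest probe, with its probes ranging from −3.95 to 3.56. None of the 7 macrophage genes above background on all 4 arrays had a difference past the threshold (5 more positive with spike-in scaling). Of 17 blood transcription factors 11 rose and 1 fell, with a median of 1.69 (1.39 with bounds, 0.56 over genes above background on all 4 arrays, 0.62 with normexp). *Runx1* rose by 1.42 (−0.14 on its lowest probe).

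The promoters of 4 red cell genes with smaller rises in the knockout are shown for their GATA and CACCC elements, the motifs that erythroid GATA and Krüppel-like factors read. Capitals mark GATA matches (WGATAR, where W is A or T and R is A or G) and CACCC matches (CCNCNCCC) on either strand. Each sequence is the 250 bases before the RefSeq transcript start in GRCm38.p6, on the strand of the gene: *Hbb-y* (chr7:103853208-103853457, minus strand), *Hba-x* (chr11:32276350-32276599, plus strand), *Alas2* (chrX:150547167-150547416, plus strand) and *Gata1* (chrX:7967911-7968160, minus strand). *Hbb-y* held 1 GATA and 0 CACCC matches, *Hba-x* 2 and 1, *Alas2* 1 and 4, and *Gata1* 0 and 3. Of 32851 promoters, 26.5% held a GATA match and 45.9% a CACCC match. A match is a description, not a site or a cause.
Hbb-y: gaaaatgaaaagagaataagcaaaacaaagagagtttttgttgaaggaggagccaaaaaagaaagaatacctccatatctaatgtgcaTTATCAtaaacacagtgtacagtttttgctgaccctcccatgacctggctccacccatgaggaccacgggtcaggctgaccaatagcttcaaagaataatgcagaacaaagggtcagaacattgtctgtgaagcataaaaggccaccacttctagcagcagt
Hba-x: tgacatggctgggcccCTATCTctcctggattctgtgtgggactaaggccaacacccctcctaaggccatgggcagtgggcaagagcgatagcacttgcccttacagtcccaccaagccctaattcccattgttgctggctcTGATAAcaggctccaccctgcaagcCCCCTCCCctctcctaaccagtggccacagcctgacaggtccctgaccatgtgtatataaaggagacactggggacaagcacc
Alas2: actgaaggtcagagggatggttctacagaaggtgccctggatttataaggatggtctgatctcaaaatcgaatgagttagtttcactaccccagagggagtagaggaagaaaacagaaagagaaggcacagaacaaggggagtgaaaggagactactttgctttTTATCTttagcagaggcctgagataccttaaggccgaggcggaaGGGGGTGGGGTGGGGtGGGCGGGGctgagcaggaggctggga
Gata1: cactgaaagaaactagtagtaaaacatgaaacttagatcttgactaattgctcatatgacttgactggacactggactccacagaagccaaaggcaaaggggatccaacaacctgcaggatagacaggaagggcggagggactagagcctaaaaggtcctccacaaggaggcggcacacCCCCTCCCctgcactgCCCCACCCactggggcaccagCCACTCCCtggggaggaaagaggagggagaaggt

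Endothelial genes had mostly more negative changes in the knockout with the scaling used here. Of 26 measured, 6 rose and 6 fell in the knockout, while 13 rose in WT, and the knockout median was 0.10 (−0.01 with normexp). Of the 25 above background on all arrays 9 had a more negative knockout change and 0 a more positive one, where 6.37% and 5.04% of all genes did. Their median difference was −0.35 (0.35 with spike-in scaling, with 6 more positive and 0 more negative). The guidance receptor *Robo4* rose from −0.49 to 1.94, by 2.43 against 3.06, but its difference turned to 0.078 with spike-in scaling. The arterial connexin *Gja5* rose by 1.44 against 2.39, although 1 of 2 measured *Gja5* probes went the other way. The tight junction gene *Cldn5* read 0.72, 1.61, 2.13 and 1.96, a change of 0.36 in the knockout and 1.41 in WT. *Vwf*, of endothelium and platelets, rose by 0.60 against 1.82 (−0.26 on its lowest probe). *Etv2*, the early specifier of blood vessels, fell by 4.03 (16.4-fold), and *Kdr* fell by 0.60.

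Heart genes changed in both directions. Of 19 sarcomere and hormone genes 5 rose and 7 fell, with a median of −0.29 (0.35 with spike-in scaling, 0.01 unscaled). The atrial hormone *Nppa* read −0.54, 0.02, 3.28 and 3.01 and rose by 2.99 (7.95-fold) in the knockout, while the ventricular light chain *Myl2* rose by 0.69 against 1.76. The calcium pump regulators *Sln* and *Pln* rose from background by at least 4.78- and 3.78-fold. *Tnnt2*, *Myh6* and *Myh7*, contractile genes of the early heart tube, fell by 1.13, 0.92 and 0.66. Among 17 cardiac transcription factors 2 rose and 7 fell, with a median of −0.44 (0.20 with spike-in scaling). *Nkx2-5* fell by 1.92 (3.79-fold), *Myocd* by 1.83 against −2.57, and *Gata4* by 1.08, while *Tbx2* and *Isl1* rose by 1.86 and 1.09. Of 11 smooth muscle genes 0 rose and 6 fell, with a median of −0.62 (0.02 with spike-in scaling), and *Acta2* went from 5.43 to 4.09.

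Neuronal differentiation was the largest coordinated rise among the lists of the nervous system. Of 28 proneural and neuronal factors 24 rose and 2 fell in the knockout, with a median of 2.84 (2.34 with bounds, 1.95 with normexp). *Neurod1*, *Nhlh2* and *Myt1* rose from background by at least 39.0-, 30.4- and 55.2-fold. Of 27 genes of the neuronal cytoskeleton and synaptic vesicles 22 rose and 0 fell, with a median of 2.21 (1.18 with normexp). Doublecortin (*Dcx*) rose by at least 37.6-fold, the neuronal tubulin *Tubb3* by 2.50 (5.65-fold) and the neurofilament *Nefm* by 4.15 (17.7-fold). *Stmn4* read −3.82, −3.02, 3.28 and 2.68 and *Elavl3* −2.51, −2.53, 2.93 and 2.43. The interneuron factor *Lhx1* fell by 1.18, against −0.36 in WT.

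These neuronal rises were mostly smaller than in WT. The median difference was −0.47 for the 21 proneural factors above background on all arrays (0.23 with spike-in scaling) and −0.37 for 23 cytoskeletal and vesicle genes (0.34 with spike-in scaling). *Neurog2*, which commits progenitors to the neuronal fate, read −2.76, −1.90, 0.46 and 0.19 and rose by 2.09 against 3.22. *Pou3f2* rose by 2.26 against 3.46 and *Dpysl3* by 0.97 against 1.99. *Stmn4* rose by 5.70 against 7.10. The gap lay at both ends for *Stmn4* and *Neurog2*, which were higher in the knockout at E8.5 and lower at E10.5. *Nefm* was an exception, with 4.15 against 3.50. *Pou4f1*, of sensory neurons, rose by 0.80 in the knockout, where the WT change was −0.87.

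**Figure D2:**
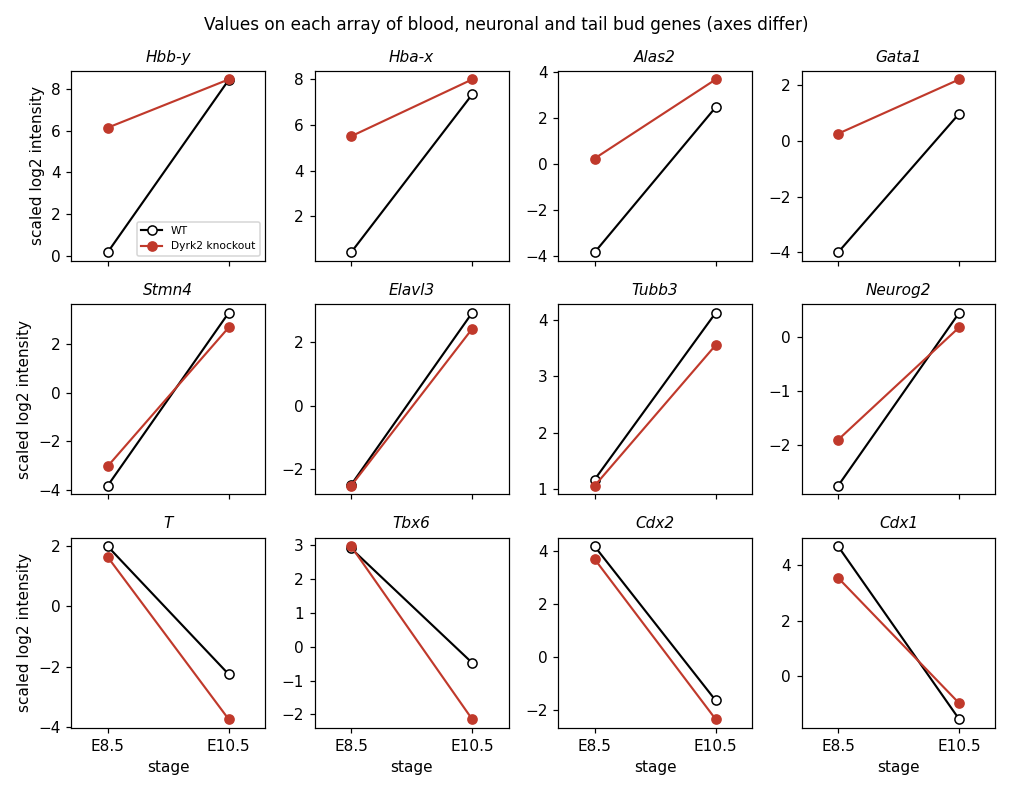
Scaled log2 intensity at E8.5 and E10.5 of 12 genes of blood, neurons and tail bud in WT (open, black) and *Dyrk2* knockout embryos (filled, red), 1 array per point, with a separate axis for each gene. The red cell genes start higher in the knockout at E8.5, while *T* and *Tbx6* end lower at E10.5.

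Progenitor and regional genes of the neural tube changed in both directions. Of 22 neural progenitor genes 11 rose and 2 fell, with a median of 0.59 (0.29 with normexp), and of the 19 above background on all arrays 7 had a more negative and 1 a more positive knockout change (0 and 8 with spike-in scaling). The radial glial fatty acid binding protein *Fabp7* rose by 3.83 (14.3-fold) and the NOTCH effector *Hes5* by 1.70 against 2.51. The interneuron progenitor factors *Dbx1* and *Gsx1* rose by 3.59 and by at least 12.2-fold, and the motor neuron progenitor factor *Olig2* by 1.66 against 2.47. The broad progenitor factors *Sox2* and *Pax6* changed by 0.11 and −0.18. In the forebrain and eye field 13 of 20 genes rose and 4 fell, with a median of 0.85 (0.75 with bounds). With normexp 5 rose and 3 fell, with a median of 0.37. *Dlx1* rose by at least 13.2-fold and *Dlx2* by 1.48, whereas the early eye field genes *Six3* and *Rax* fell, from 0.02 to −1.24 and from −0.08 to −1.08. The pituitary and forebrain gene *Hesx1* fell by 1.88 against −3.58 in WT.

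At the midbrain-hindbrain border 9 of 14 genes fell and 2 rose, with a median of −1.35. *Egr2*, the marker of hindbrain segments 3 and 5, fell by 5.09 (34.0-fold), *Pax8* by 2.54 and *Gbx2* by 2.14, while *En2* changed by 0.13. Of 25 neural crest and placode genes 9 rose and 6 fell, with a median of 0.17. The facial mesenchyme gene *Alx4* rose by 1.81, beside 2.57 in WT. The early crest factor *Foxd3* fell by 1.18. *Sox10*, of migrating crest and glia, read 1.22, 1.94, 1.49 and 1.18, so that it fell by 0.75 in the knockout and changed by 0.27 in WT. Of the 30 axon guidance genes 8 rose and 3 fell, with a median of 0.04. The commissural receptor *Robo3* rose 7.99-fold, *Sema3d* by 1.49 and *Unc5a* by 1.46 against 2.30, while *Dcc* and *Ntn1* changed by 0.42 and 0.03. The *Dcc* probes ranged from 0.42 to 2.78, so its change depends on the probe.

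The tail bud programme declined. Of 19 genes of the tail bud and presomitic mesoderm 16 fell and 0 rose in the knockout, with a median of −2.73 (−2.52 with bounds). The mesoderm factors *T* (from 1.64 to −3.74) and *Tbx6* (from 2.95 to −2.14) fell by 5.38 (41.7-fold) and 5.09 (34.1-fold), against −4.24 and −3.37 in WT. Their E8.5 values were −0.35 and 0.06 from WT, and the knockout was lower at E10.5. A dimmer *T* probe was above background on no array, and with the mean of both probes the difference was 0.38. *Cdx2* (4.18, 3.70, −1.65 and −2.36) fell by 6.05 and *Cdx1* (4.67, 3.54, −1.53 and −0.96) by 4.49, where the WT changes were −5.83 and −6.20. *Cdx4* and *Nkx1-2* fell to background, by at least 70.9- and 18.3-fold. The axis-extending signals *Fgf4*, *Fgf8* and *Wnt3a* and the retinoic acid hydroxylase *Cyp26a1* fell by 3.53, 1.70, 1.67 and 2.52, beside −3.12, −1.86, −1.88 and −2.63 in WT. Larger falls of *T* and *Tbx6* thus stood beside a smaller fall of *Cdx1*. Over the 16 genes above background on all arrays the median difference was −0.15 (0.56 with spike-in scaling, 0.08 with normexp). Of these 16, 3 had a more negative and 1 a more positive knockout change (1 and 8 with spike-in scaling), and 9 changed less in the knockout.

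The promoters of 2 tail bud genes whose falls were larger in the knockout past the threshold are shown for TCF and T-box elements, the motifs that WNT effectors and T-box factors such as T read. Capitals mark TCF matches (CTTTGA) and T-box matches (TCACACCT or AGGTGTNA) on either strand in the 250 bases before the RefSeq start in GRCm38.p6: *T* (chr17:8434173-8434422, plus strand) and *Tbx6* (chr7:126781233-126781482, plus strand). *T* held 1 TCF and 1 T-box match, and *Tbx6* held 0 of either. Of the other 2 tail bud promoters read, *Cdx4* held 0 of either and *Msgn1* held 2 TCF and 0 T-box matches. Of all 32851 promoters 13.8% held a TCF match and 2.68% a T-box match. A match is a description, not a site or a cause.
T: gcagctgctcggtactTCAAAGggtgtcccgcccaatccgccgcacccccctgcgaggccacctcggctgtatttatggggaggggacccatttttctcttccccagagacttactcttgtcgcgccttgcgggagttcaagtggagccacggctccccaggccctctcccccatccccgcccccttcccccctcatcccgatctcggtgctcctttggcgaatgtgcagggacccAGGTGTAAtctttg
Tbx6: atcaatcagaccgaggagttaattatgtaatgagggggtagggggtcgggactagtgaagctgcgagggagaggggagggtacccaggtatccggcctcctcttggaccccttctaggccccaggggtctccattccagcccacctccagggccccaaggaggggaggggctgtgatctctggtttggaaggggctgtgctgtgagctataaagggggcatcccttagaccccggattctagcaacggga

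Of 18 genes of the segmentation clock and somite 5 rose and 9 fell, with a median of −0.54 (0.10 with spike-in scaling). *Meox1* and *Tcf15*, the markers of somites, fell by 0.68 and 0.59. The clock gene *Hes7* fell by 2.51 (5.69-fold), beside −2.45 in WT, and *Mesp1* fell to background by at least 3.10-fold. The somite genes *Meox2* and *Uncx* rose by 1.31 and 1.15, against 2.43 and 2.01. Of 16 genes of sclerotome, tendon and cartilage 8 rose and 3 fell, with a median of 0.53. The sclerotome factor *Pax1* read −1.64, −1.03, 1.33 and 0.67 and rose by 1.70 against 2.97. *Scx* of tendon rose by 1.42, and the cartilage genes *Sox9* and *Col2a1* by 1.24 and 0.70, beside 0.95 and 0.83.

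Genes of muscle differentiation rose in part from background. Of 17 skeletal muscle genes 9 rose, 7 of them above background only at E10.5, and 3 fell (4 and 3 with normexp). The median was 0.75 (0.51 with bounds, 0.24 with normexp), and −0.05 over the 10 genes above background on all 4 arrays. *Myog*, the differentiation factor, rose by at least 36.0-fold, the embryonic myosin *Myh3* by at least 62.5-fold and the acetylcholine receptor subunit *Chrng* by at least 6.58-fold. *Cdh15* rose by 0.75 against 1.74, and *Acta1* fell by 1.75 against −0.74. Among 25 matrix genes 15 rose and 3 fell, with a median of 0.94 (0.67 with bounds, 0.40 with normexp). *Col3a1* read 0.98, 1.92, 4.70 and 4.82 and rose by 2.89 (7.43-fold), *Col6a3* by 2.71 and *Mgp* by 1.16 against 2.27. The proteoglycan *Dcn* went the other way in size, with 2.48 in the knockout and 1.28 in WT.

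The Hox genes changed by position in their clusters. Of 10 measured genes of paralogue groups 10 to 13, 9 rose and 0 fell, with a median of 2.58 (2.30 with bounds, 1.30 with normexp). *Hoxa11* rose by 3.42, *Hoxc10* (−4.36, −3.32, −0.52 and −0.85) by 2.47 against 3.84, *Hoxd13* (−3.98, −3.40, −0.65 and −1.34) by 2.06 against 3.33, and *Hoxd12* from background by at least 9.08-fold. The median difference of the 4 measured on all arrays was −1.04. Of 15 genes of groups 5 to 9, 5 rose and 5 fell, with a median of −0.13 (0.51 with spike-in scaling, 0.18 unscaled). There 9 of 14 genes had a more negative knockout change and 0 a more positive one, with a median difference of −0.66 (0.05 with spike-in scaling). *Hoxb9* read 3.35, 4.05, 2.83 and 2.37 and fell by 1.68 against −0.52, *Hoxb8* fell by 0.97 against −0.05, and *Hoxa5* rose by 0.69 against 1.46. In groups 1 to 4, 1 of 12 rose and 5 fell, with a median of −0.48 (0.16 with spike-in scaling). *Hoxb1* and *Hoxd1*, of group 1, fell, with changes of −2.73 and −3.49.

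In the limb bud 7 of 19 genes rose and 3 fell, with a median of 0.04. The skeletal patterning factor *Shox2* read −3.34, −2.95, 1.72 and 1.09 and rose by 4.03 (16.4-fold) against 5.06 in WT. The mesenchymal factor *Prrx1* rose by 1.83 and *Lhx9* from background by at least 15.2-fold. The BMP antagonist *Grem1* fell by 0.88. *Fgf10*, *Tbx4* and *Tbx5*, which set up the buds, changed by −0.54, 0.15 and 0.04, and *Pitx1* of the hindlimb by 0.11 against 0.88 in WT. Of 18 kidney and gonad genes 7 rose and 9 fell, with a median of −0.48 (0.16 with spike-in scaling). *Wt1* rose by 2.51 (5.70-fold), while *Pax2* fell by 1.25 against −0.55. The *Pax2* difference turned to 0.0088 with spike-in scaling and to 0.0935 with the mean over probes. The nephron progenitor gene *Six2* changed by 0.52 against 1.35.

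Yolk sac genes fell together. Of 18 visceral endoderm genes 15 fell and 2 rose in the knockout, with a median of −2.52 (−2.34 with bounds). The endocytic receptor *Cubn* read 2.67, 1.88, −2.50 and −2.30 and fell by 4.19 (18.2-fold), its partner *Amn* fell by at least 32.2-fold, and *S100g* by at least 37.4-fold. Of the 12 genes above background on all arrays 5 had a more positive knockout change and 0 a more negative one, with a median difference of 0.32. *Rhox5* fell by 2.41 against −3.54 and *Spink1* by 6.85 against −8.15. On the E8.5 arrays *Cubn*, *Rhox5* and *Spink1* were −0.79, −0.90 and −1.02 from WT. How much yolk sac went with each embryo is not given in the sources used here. Of 10 trophoblast and decidua genes 5 rose and 5 fell. *Cbr2* rose by at least 13.5-fold and *Gcm1* by 1.06 against 0.14, while the placental hormones *Prl8a2* and *Prl3d1* fell by at least 8.95- and 6.39-fold. The 3 *Gcm1* probes ranged from 0.04 to 1.81 in the knockout.

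Endoderm genes also fell, and by less than in WT at the median. Of 20 endoderm and foregut genes 12 fell and 2 rose, with a median of −1.09 and a median difference of 0.29. *Foxa2* changed by −0.58 in the knockout and −1.33 in WT, and *Hnf4a* fell by 1.36 against −2.22. The gut hormone *Pyy* fell by 3.51 (11.4-fold), and *Nkx2-1*, of thyroid, lung and forebrain, rose from background by at least 3.26-fold. Among 19 liver and plasma protein genes 6 rose and 9 fell, with a median of −0.43 (0.21 with spike-in scaling). Albumin (*Alb*) rose from background by at least 12.1-fold and *Afp* by 0.87, while transthyretin (*Ttr*) fell by 3.11 and *Apoc2* by 6.32. Of 12 factors of gut and lung mesenchyme 3 rose and 3 fell, with a median of −0.25 (0.39 with spike-in scaling, 0.06 unscaled). *Foxf1* fell from 3.62 to 2.30, by 1.32 against −1.45, *Barx1* of the stomach rose by at least 13.9-fold, and *Foxf2* changed by 0.17 against 1.13.

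Epithelial genes mostly fell in both genotypes. Of 22 genes of epithelium and surface ectoderm 16 fell and 3 rose, with a median of −1.25 and a median difference of 0.05. Of these 22, 2 had a more positive and 1 a more negative knockout change, near the shares of 5.04% and 6.37% over all genes. The simple keratins *Krt8* (5.39 to 3.24), *Krt18* and *Krt19* fell by 2.14, 1.96 and 2.07, beside −2.68, −2.59 and −2.11 in WT, and the adhesion gene *Epcam* by 1.27. *Trp63*, of stratified epithelium, changed by −0.08, with its probes ranging from −0.08 to 1.77. Of 8 whole-embryo markers of the germ layers 5 fell and 0 rose, with a median of −0.64 (0.00 with spike-in scaling).

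Of 21 FGF ligands and feedback targets 13 fell and 2 rose, with a median of −1.16 (−0.69 with normexp) beside −0.91 in WT, and 0 of 21 had a difference past the threshold (13 more positive with spike-in scaling). *Fgf3* fell by 4.85 and *Fgf15* by 1.60 against −1.61, while *Fgf5* rose by 1.49. Of 29 WNT genes 9 rose and 12 fell, with a median of −0.21 (0.43 with spike-in scaling, 0.10 unscaled). The WNT enhancer *Rspo2* rose by at least 16.9-fold, the antagonist *Dkk2* by 2.23 against 3.13, and *Sfrp5* fell by 3.32. Of 24 BMP and TGF-beta genes 5 rose (3 with bounds and 2 with normexp) and 7 fell, with a median of −0.23 (0.41 with spike-in scaling, 0.07 unscaled). *Bmp2* fell by 1.75 against −2.55, and *Tgfb3* rose by 1.34 against 2.12. Of 18 NOTCH genes 7 rose and 0 fell, with a median of 0.45. *Heyl* rose by 4.49 (22.5-fold), and *Notch1* by 1.21 against 0.02 in WT.

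Of 19 hedgehog genes measured 3 rose and 4 fell, where 17.6% and 13.9% of all genes did, with a median of −0.15 (0.49 with spike-in scaling, 0.16 unscaled). The ligand *Shh* and the target *Gli1* changed by −0.15 and −0.41, the receptor *Ptch1* fell by 0.78, and *Ihh* fell by 2.58 (5.98-fold). *Dhh* rose by 3.16 and the antagonist *Hhip* by 0.70. Of 14 genes of the node, left-right axis and cilia 4 rose and 4 fell, with a median of 0.10 (−0.10 with normexp), and 4 of 12 had a more positive knockout change, where 5.04% of all genes did (11 with spike-in scaling, 2 with normexp). The left-right genes *Lefty2* (−0.94, −2.82, −3.43 and −3.47) and *Cfc1* (−0.70, −1.96, −4.40 and −4.11) fell by 0.65 and 2.15 against −2.49 and −3.71, from lower E8.5 values in the knockout. The ciliogenesis factor *Foxj1* rose by 2.46 against 1.73. Of 14 retinoic acid genes 3 rose and 5 fell, with a median of 0.03. The synthetic enzymes *Aldh1a1* and *Aldh1a3* rose by 3.41 and 2.44, against 3.68 and 3.97.

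Genes of the early embryo fell. Of 23 pluripotency and early RNA regulators 14 fell and 1 rose, with a median of −0.70. *Lin28a*, which blocks let-7 maturation, went from 5.93 to 3.11, a fall of 2.82 (7.08-fold), and the DNA methyltransferase *Dnmt3b* fell by 1.82. *Pou5f1* read 0.38, −1.05, −2.26 and −2.29 and fell by 1.24 against −2.63. Of 10 germ cell genes 6 fell and 1, *Nanos3*, rose by 1.72. Among 22 imprinted genes 6 rose and 4 fell, with a median of −0.02 (0.11 with quantile scaling and in the deposited values, 0.61 with spike-in scaling, 0.28 unscaled). The placental growth regulator *Phlda2* fell by 5.43, and *Nnat*, *Cdkn1c* and *Dlk1* rose by 1.12, 0.83 and 0.79.

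Glucose metabolism and hypoxia genes fell. Of 22 glycolysis genes 13 fell and 2 rose, with a median of −0.79. The glucose transporter *Slc2a3* read 6.71, 6.71, 2.66 and 3.02 and fell by 3.69 (12.9-fold), the hexokinase *Hk2* by 1.90 and the aldolase *Aldoc* by 2.28, beside −4.05, −2.09 and −2.50 in WT. Of 14 hypoxia targets 11 fell and 0 rose in the knockout, while 7 fell in WT, with medians of −1.19 and −0.58 and a median difference of −0.30 (0.40 with spike-in scaling). The vasodilator peptide *Adm* read −1.45, −0.12, −1.94 and −1.94 and fell by 1.81 against −0.49, and its excess lay at E8.5. *Bnip3* and *Egln3* fell by 1.91 and 1.71, against −1.58 and −1.16. Oxidative phosphorylation had 2 rises and 1 fall among 23 genes and a median of 0.13 (17 and 0, with 0.77, with spike-in scaling). The muscle subunits *Cox6a2* and *Cox8b* rose, by 1.39 and by at least 2.67-fold.

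Of 31 cell cycle and replication genes 26 did not pass the threshold, with a median of −0.27 (0.37 with spike-in scaling, 0.03 unscaled). The proliferation marker *Mki67* changed by 0.43, the inhibitor *Cdkn1b* rose by 0.82, and *Cdt1* and *Mycn* fell by 0.92 and 0.87. None of 24 ribosomal protein genes changed, with a median of −0.20 (0.44 with spike-in scaling, 0.11 unscaled). Of 14 p53 targets 2 rose and 2 fell, near the shares of all genes, with a median of 0.07, and *Cdkn1a* changed by 0.08. Of 18 immediate early and heat shock genes 5 rose and 4 fell, with a median of −0.10 (0.54 with spike-in scaling, 0.21 unscaled). *Ier3* fell by 2.04 against −0.93, the stress gene *Trib3* rose by 1.85 against 0.86, and *Egr1* changed by −0.58 against 0.62.

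**Figure D3:**
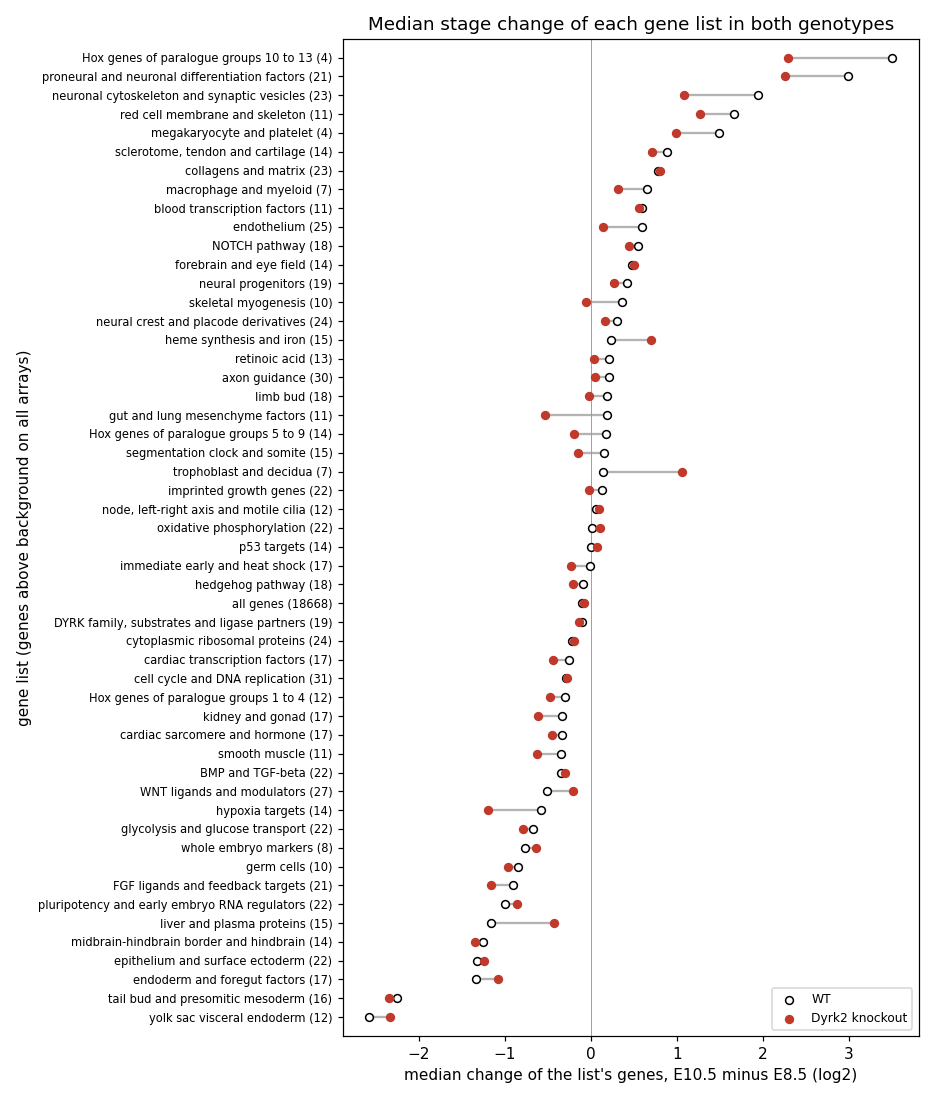
Median log2 change from E8.5 to E10.5 of gene lists in WT (open) and the *Dyrk2* knockout (filled, red), over genes above background on all 4 arrays (number in brackets, 1 array per group). Lists with fewer than 4 such genes are not drawn: the embryonic and adult-type globins and the sex chromosome genes. Most rising lists lie closer to 0 in the knockout. Spike-in scaling would move each knockout point by 0.64 and each WT point by −0.07. This turns the direction of the small medians. It also turns the difference between the genotypes in 32 of 53 lists, a count that includes the globin lists.

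The most negative differences fell into 2 groups. A blood group held the globins *Hbb-y* (−5.97), *Hba-a2* (−4.84), *Hba-a1* (−4.78) and *Hba-x* (−4.42) with *Slc4a1* (−3.98). The other held 5 predicted transcripts without gene names, 3 within chr9:3017151-3030779 and 2 within chr2:98502597-98507154 (mm9). All 5 were brighter on the knockout E8.5 array alone, 18.3- to 31.2-fold above WT, so that their changes of −4.98 to −4.40 log2 in the knockout had WT counterparts of −0.07 to −0.45. Whether RNA or genomic DNA in that sample gave this signal was not tested. They form the small cluster far below the diagonal in the plot of knockout change against WT change.

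Most of the named genes with the most positive differences were low on the knockout E8.5 array. The synaptotagmin *Syt10* read 0.23, −3.52, 0.32 and −0.05 and rose by 3.47 in the knockout against 0.09 in WT, but its 2 probes ranged from −1.09 to 3.47. The predicted *Gm10856* read 5.15, 2.42, 5.32 and 5.15 and *Gm13889* 0.83, −1.82, 0.37 and 0.10. The keratin-associated *Krtap19-5* rose by 1.94 against −0.41. Each of these was at least 1.5-fold below WT at E8.5 on the brightest probe. The aquaporin *Aqp3* (1.98) instead had its larger gap at E10.5, 1.45 beside −0.53 at E8.5. Among genes of the fixed lists, *Lefty2* (1.84), *Kel* (1.84), *Hesx1* (1.70), *Cdx1* (1.70) and *Pou4f1* (1.68) also had more positive knockout changes. *Hesx1* and *Kel* differed more at E10.5, by 1.22 and 1.31, than at E8.5, by −0.49 and −0.53.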

How the data were processed

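The 4 Agilent mouse arrays, of 1 slide and 1 dye, each held the RNA of whole embryos of 1 genotype and stage. Per the file headers, the intensity of each spot was background-subtracted and corrected for its position on the array by Agilent Feature Extraction 10.7.1.1, with negative values replaced by a small surrogate. The deposited value table, also of intensity, has the same distribution in all 4 columns, as after quantile normalization. The tables had 0 columns of values without a sample. Spots of a probe were averaged in log2, and each array was scaled by subtracting its 75th percentile. Well-above-background calls passed 31370 probes on the WT E8.5 array, 30226 on knockout E8.5, 31818 on WT E10.5 and 31943 on knockout E10.5, which sets the precision for dim genes. A gene was represented by its probe with the highest mean over the 4 arrays.

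The members and lists were chosen with earlier results of these data known. Genes were named by this rule: *Dyrk2* and its family, sex chromosome genes and key members of each list; the 10 largest rises and 10 largest falls, and the 5 largest bounds each way; the 10 most positive and 10 most negative differences; and in each list the 3 members with the largest change and the 2 with the largest difference. Some genes within the rule are not reported here. Promoters and the genes plotted were chosen after their values were seen. Quantile and spike-in scaling, no scaling, normexp background correction (offset 50), the deposited values, other background filters, a threshold of 2-fold, counting by gene, averaging the probes of a gene and variance moderation without an intensity trend were tried as alternatives. Stage was tested with limma 3.58.1 in R 4.3.3 with the data.table package (version 1.17.8), with Benjamini-Hochberg adjustment. Other steps used Python 3.11.15 with numpy 2.4.6, pandas 2.3.3 and matplotlib 3.10.9.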

Additional observations from a re-analysis of the deposited data

Results flagged for a closer look

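Genes are listed here when they passed the 1.5-fold threshold upward in the knockout and downward in WT and the text names them. The difference between the genotypes was not tested, and each value comes from 1 array per group. *Pou4f1* rose by 0.80 log2 in the knockout, where the WT change was −0.87. The values for *Adgrb3*, an adhesion receptor of neurons, were 1.53 and −0.85, and its 4 values were 3.05, 1.27, 2.20 and 2.79. Its 4 probes ranged from −0.25 to 1.53 in the knockout. The aquaporin *Aqp3* had 1.28 and −0.71, and the hexokinase *Hk1* 1.02 and −0.61, with 5 *Hk1* probes between −1.15 to 1.02. The unnamed transcripts *ENSMUST00000117317* and *LOC105245882* had 1.60 and −0.67, and 2.28 and −1.05. Of these probes 2 of *Adgrb3* and 3 of *Hk1* were above background, and 2 of each had the same direction, so that only for *Hk1* did a measured probe go the other way. The cause of these differences was not tested.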

How the results depend on the processing

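Each group had 1 array, so no array could be left out in turn, and no fold change of the knockout alone carries an error. No paired analysis was possible because the labels share no replicate numbers, and the stage test used genotype as a block instead. Probes changed in the knockout numbered 10340 (5611 higher, 4729 lower). They were 4757 (2238, 2519) with normexp correction, 17598 (16234, 1364) with spike-in scaling, 5196 (3275, 1921) at 2-fold and 6689 (3730, 2959) as 1 probe per gene. Without scaling 9151 were higher and 2330 lower, with both knockout arrays above background 3498 were higher, and without a filter 16733 changed and 8572 were lower. Probes whose change differed numbered 3411 (1452 more positive, 1959 more negative). They were 1182 (571, 611) with normexp, 19022 (18870, 152) with spike-in scaling, 14937 (6483, 8454) without a filter, 736 (304, 432) at 2-fold and 2130 (941, 1189) as 1 probe per gene, and without scaling 2539 were more positive and 1245 more negative. The stage test over both genotypes called 11397 probes, 2633 with spike-in scaling and 6437 without the intensity trend. Other totals were within 1.5 times of these. Of 213 called knockout changes of named genes, 209 passed the threshold in the same direction in the deposited table and with quantile scaling, 201 unscaled, 199 with normexp and 193 with spike-in scaling, as did 84 of 92 with the mean over probes. Of 93 called differences from WT the numbers were 90, 90, 89, 79 and 47, and 16 of 33 with the mean over probes. With spike-in scaling the *Kdr* change turned to 0.0422 and that of *Tcf15* to 0.0457, and the differences turned to 0.0088 for *Pax2*, 0.0780 for *Robo4*, 0.0233 for *Scx* and 0.0902 for *Tbx2*. With the mean over probes the *Hk1* change turned to −0.15 and the differences to −0.21 for *Hk1*, 0.44 for *Col6a3*, 0.0935 for *Pax2* and 0.38 for *T*. The cause was not tested. Depth of signal limits the genes near background, whose folds are bounds.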
